A study of Mus musculus with 6 samples.

Results

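Heat shock proteins and other molecular chaperones were followed in newborn mouse lens as a set of 37 genes, of which 34 had a probe set annotated to that gene alone, out of 12393 genes measured in this way. Of several such probe sets the brightest on average over all arrays stood for the gene. This choice does not use the genotype labels, but the heterozygous values enter the average. For Hspa8, Calr, Hspe1 and Canx it was of a type (x_at or s_at) whose probes may also match other transcripts. Hsp90ab1, Hspb6 and Hsf1 had no probe set annotated to that gene alone and were not analysed here. The 34 genes comprised 21 cytosolic and nuclear chaperones and cochaperones, 3 mitochondrial chaperones, 9 chaperones of the endoplasmic reticulum and the heat shock factor Hsf2. Crystallins are not among them.

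RNA was measured on Affymetrix mouse arrays in 3 wild type mice (NMRI background, per the methods) and 3 Pax6 heterozygous mice, with the 2 lenses of one pup at postnatal day 1 in each sample. The heterozygotes are Pax6 lacZ/+, so lacZ replaces one copy of Pax6, which encodes a regulator of gene expression needed for eye and brain, in the germline and hence in every cell. No treatment was given. Values are signal intensities after robust multichip average (RMA) normalization, on a linear scale; a probe set's signal also reflects its own probes, so levels are not compared between genes as amounts of RNA. Pax6 itself read 1169, 1760 and 963 in wild type and 942, 1170 and 882 in heterozygous lenses, a mean at 76.9% of wild type with overlapping genotypes.

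Chaperones bind unfolded proteins and help them to fold, stay soluble or be degraded. In the cytosol, HSP70 proteins receive clients from J proteins, HSP90 matures signaling proteins, the CCT ring folds actin and tubulin, and small heat shock proteins hold unfolded chains in solution. The mitochondrion and the endoplasmic reticulum carry chaperones of their own, which are induced by separate stress pathways: heat shock factors bind repeats of GAA in the promoters of cytosolic and mitochondrial chaperone genes, and the unfolded protein response acts through the ER stress element of reticulum chaperone genes. Lens fiber cells lose their nuclei and organelles and keep their proteins for life, and the alpha-crystallins of the lens are small heat shock proteins.

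Chaperone signals were nearly the same in both genotypes. The median log2 difference of the 34 genes, heterozygous minus wild type, was −0.0026, beside −0.011 over all genes, and the differences ran from −0.21 (Hspa4) to 0.59 (Hspb1). In 25 of the 34 the difference was within 0.1 of 0 in either direction; this was so for 6029 of all 12393 genes. Signals were higher in heterozygotes for 15 chaperone genes and lower for 19. Chaperone genes were well above background as a group, with a median signal of 1493 and 30 of 34 above 100, against 4492 (36.2%) of all genes. Among the 4492, 2244 were within 0.1 of 0, with a median standard error of 0.20, beside 0.16 for the chaperone genes. Differences were tested with limma, a linear model with a variance shared across probe sets, and adjusted p values are Benjamini-Hochberg values over all 22626 probe sets.

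No chaperone gene passed an adjusted p of 0.05 (percent of all probe sets passing, 0%), and the smallest adjusted p was 1.00. At an unadjusted p under 0.05 the count was 0 of 34, where 1.99% of all probe sets passed (0.977% higher and 1.01% lower in heterozygotes). In no chaperone gene did all 3 values of a genotype lie above those of the other, a pattern seen in 6.18% of all probe sets. Samples carrying the same replicate number deviated together, and with the replicate number as a block 3 of 34 had an unadjusted p under 0.05, namely Hspb1, Bag3 and Hsp90b1. All 3 were higher in heterozygotes, and over all probe sets the block gave 9.03%, made of 4.43% higher and 4.59% lower. Their smallest adjusted p with the block was 0.395, and 0.00884% of all probe sets passed 0.05, so none of the 34 genes passed in either fit. The 3 genes are described from these values. The count of 3 of 34 is close to the 9.03% for both directions together and above the 4.43% for higher alone. Over all genes at their brightest probe set, 658 of 12393 were higher with such a p. Whether the chaperone genes differ from these shares was not tested.

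**Figure D1:**
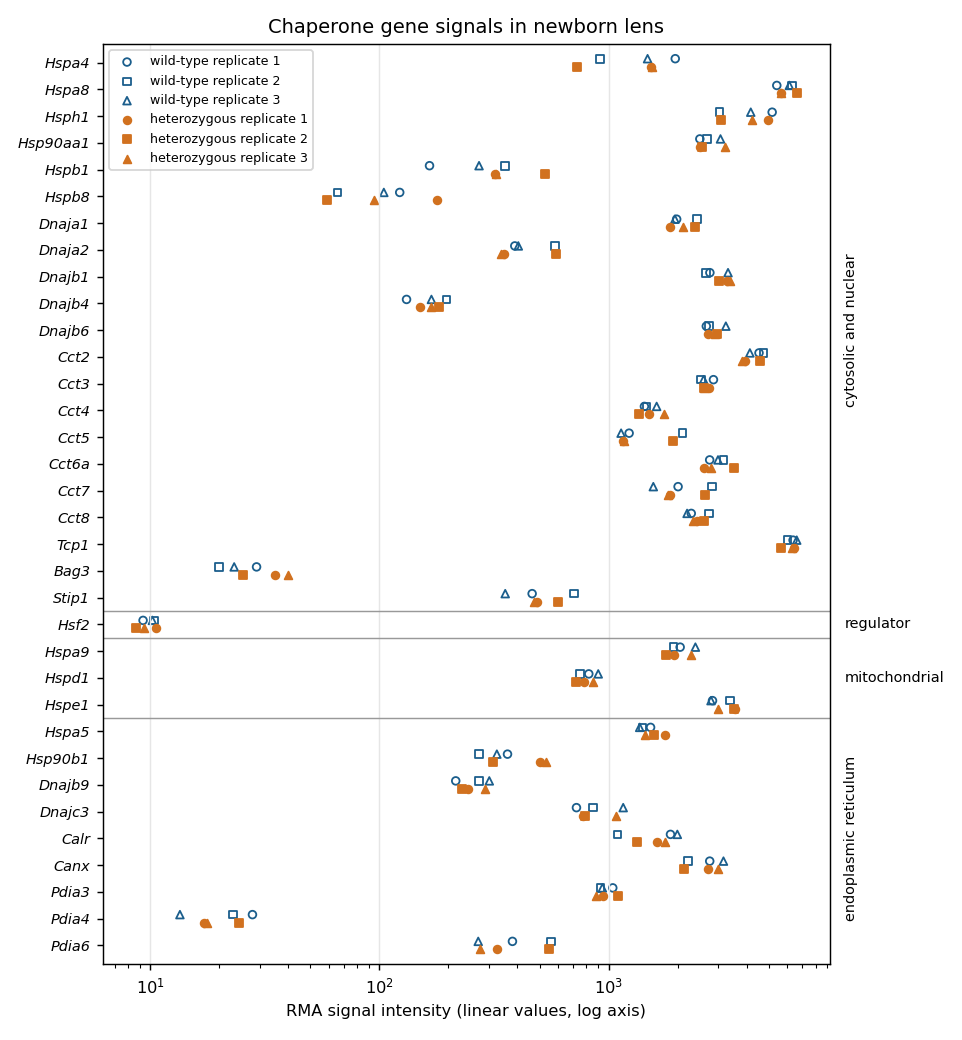
RMA signal intensity (linear values on a log axis) of the brightest probe set of each of the 34 chaperone genes, ordered by compartment, in 3 wild type (open symbols) and 3 Pax6 heterozygous lens samples (filled symbols), with the symbol shape giving the replicate number. Open and filled symbols of a gene overlap throughout, and the spread within a genotype exceeds the shift between genotypes for most genes, as for Hspa4, Cct5 and Pdia6.

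Among cytosolic HSP70 and HSP110 proteins, which use ATP to bind and release clients, Hspa8 is the constitutive HSP70. Its signals were 5415, 6291 and 6142 in wild type and 5629, 6615 and 5668 in heterozygotes (replicates 1, 2 and 3), a log2 difference of 0.00 (95% interval −0.30 to 0.31). Hsph1, an HSP110 that exchanges the nucleotide of HSP70, read 5169, 3046 and 4169 in wild type and 4964, 3078 and 4217 in heterozygotes. Each heterozygous sample thus lay beside the wild type sample of its own replicate number, and the genotypes differed by −0.01 ± 0.26 (standard error).

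The lowest log2 difference of the 34 belonged to Hspa4, another HSP110. Its signals were 1953, 917 and 1479 in wild type and 1526, 731 and 1548 in heterozygotes. Replicate 2 was low in both genotypes, the genotypes overlapped, and the difference was −0.21 ± 0.39 (adjusted p = 1.00). Of its other probe sets above a signal of 100, one gave 0.06 and the other −0.26, so the direction depended on the probe set.

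Hsp90aa1, the inducible cytosolic HSP90, had signals of 2499, 2680 and 3076 in wild type and of 2504, 2563 and 3231 in heterozygous lenses. Its genotypes were matched replicate by replicate, with a difference of 0.00 (interval −0.36 to 0.37). The other Hsp90aa1 probe sets had the opposite sign, at −0.07 and −0.04. Hsp90aa1, Hspa8 and Hsph1 were chosen for these sentences after their values were seen.

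The small heat shock proteins are ATP-independent holdases, and Hspb1 is the HSP27 protein, which also binds actin filaments. Hspb1 had the highest log2 difference of the 34 genes. Its brightest probe set (1422943_a_at) read 165, 352 and 272 in wild type and 319, 525 and 323 in heterozygous lenses. The heterozygous sample was the higher one for each replicate number, by 0.95, 0.58 and 0.25 on the log2 scale, but the genotypes overlapped because wild type replicate 2 lay above heterozygous replicates 1 and 3. The means were 263 ± 93.8 and 389 ± 118 (SD, n = 3 mice each), and the log2 difference was 0.59 ± 0.33 with a 95% interval of −0.20 to 1.38 (adjusted p = 1.00). With the replicate block the interval was 0.22 to 0.96 (adjusted p = 0.395).

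The second Hspb1 probe set (1425964_x_at), of a type whose probes may also match other transcripts, read 157, 207 and 170 in wild type and 261, 393 and 264 in heterozygotes. Here the genotypes did not overlap. The log2 difference was 0.76 ± 0.20 (interval 0.27 to 1.26, adjusted p = 1.00; adjusted p = 0.240 with the block). Both probe sets of Hspb1 therefore had the same sign and similar size, and neither passed the adjusted threshold. Of all 83 probe sets of the 34 genes this was the only one with an unadjusted p under 0.05 without the block, and 4 had one with it. When the mean of both probe sets stood for the gene, Hspb1 differed by 0.68 with an unadjusted limma p of 0.0349. Without wild type replicate 1 the difference of the brightest probe set was 0.29, without heterozygous replicate 2 it was 0.35, and without wild type replicate 2 it was 0.84.

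The promoter of Hspb1 is shown because the gene leads the 34 by its difference and holds heat shock elements. The sequence is RefSeq's window from 250 bases before to 50 after the start site, at chr5:135887669-135887968 of GRCm38.p6, plus strand, and capitals mark the 3-base ends of GAANNTTC, the 2-unit heat shock element.
Hspb1: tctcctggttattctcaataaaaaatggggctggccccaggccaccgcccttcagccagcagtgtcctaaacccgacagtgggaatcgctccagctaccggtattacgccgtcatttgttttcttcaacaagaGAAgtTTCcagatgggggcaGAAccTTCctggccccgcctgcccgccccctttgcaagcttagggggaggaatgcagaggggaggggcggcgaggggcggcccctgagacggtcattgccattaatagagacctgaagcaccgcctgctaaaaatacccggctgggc
The window holds GAANNTTC at 117 and at 97 bases before the start site. This palindrome was found in 7.86% of all 32851 RefSeq windows of this length, so a match alone is common.

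Hspb8, the partner of Bag3 in chaperone-assisted autophagy, ranged from 65.6 to 123 in wild type and from 59.2 to 178 in heterozygotes. Its difference was 0.08 ± 0.43, beside 0.59 for Hspb1, and the difference between these genes was not tested. With an interval of −0.95 to 1.11, a change of Hspb8 in either direction was not detectable in 3 mice per genotype.

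Bag3, the cochaperone that links HSP70 to small heat shock proteins and autophagy, had signals of 29.1, 19.9 and 23.2 in wild type and of 35.1, 25.4 and 39.9 in heterozygotes. Every heterozygous sample was above the wild type sample of its number, by 0.27, 0.35 and 0.78 on the log2 scale, while heterozygous replicate 2 lay below wild type replicate 1. The means were 24.1 ± 4.64 and 33.5 ± 7.37 (SD, n = 3 mice each), and the log2 difference was 0.47 ± 0.22 (adjusted p = 1.00; adjusted p = 0.441 with the block). The signal is low: 31 genes of olfactory receptors, which serve as a guide to background, had median signals of 8.16 to 13.4. Bag3 had no other probe set to set beside it.

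The Bag3 window, at chr7:128523333-128523632, plus strand, holds the same palindrome as Hspb1 but after the start site, from base 42 to base 49.
Bag3: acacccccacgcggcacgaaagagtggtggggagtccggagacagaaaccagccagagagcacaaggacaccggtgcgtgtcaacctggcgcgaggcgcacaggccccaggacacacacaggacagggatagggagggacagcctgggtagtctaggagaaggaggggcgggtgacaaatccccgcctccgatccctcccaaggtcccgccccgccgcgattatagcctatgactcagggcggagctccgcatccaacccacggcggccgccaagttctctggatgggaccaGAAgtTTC
The match closes the window, and capitals mark it as above. A match is a property of the sequence and carries no measurement of binding.

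**Figure D2:**
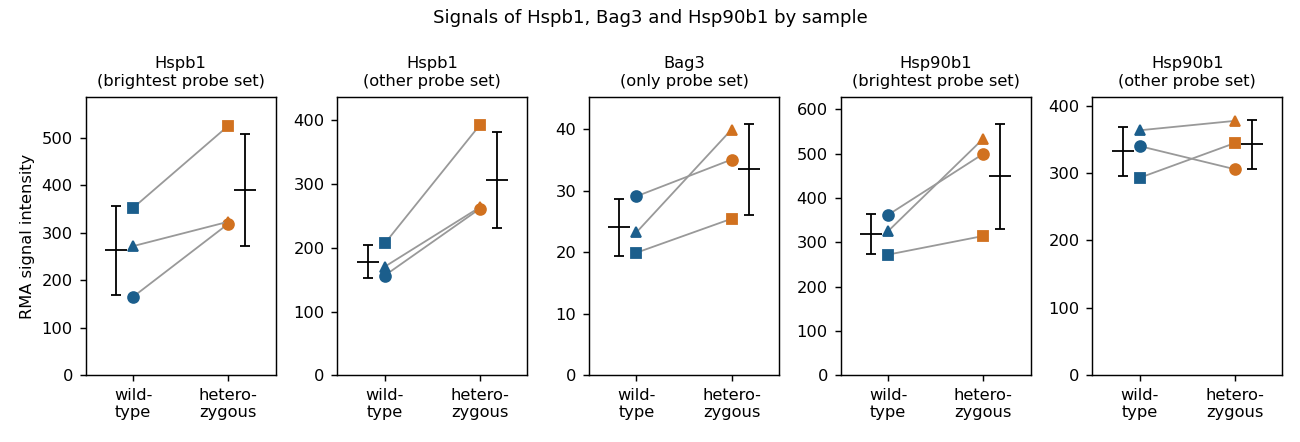
Signal intensity (linear axes from 0) of Hspb1, Bag3 and Hsp90b1 in each sample, with circles, squares and triangles for replicates 1, 2 and 3, grey lines joining samples of the same number, and bars giving mean ± SD of 3 mice. All lines rise for both Hspb1 probe sets, for Bag3 and for the brightest Hsp90b1 probe set, while the other Hsp90b1 probe set shows no common direction.

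The J proteins deliver clients to HSP70 and stimulate its ATPase. Dnajb1, the main stress-inducible J protein of the cytosol, read 2765, 2650 and 3318 in wild type and 3284, 3020 and 3389 in heterozygotes, higher in 3 of 3 same-numbered pairs with a difference of 0.16 ± 0.13. The other Dnajb1 probe set gave 0.27 and was higher in 2 of 3 pairs. Dnaja2 had one of the 3 lowest differences, with signals of 389, 584 and 404 in wild type and 348, 590 and 339 in heterozygotes. Replicate 2 stood above the other samples in both genotypes, and the difference of −0.13 ± 0.27 was well within the spread. The other Dnaja2 probe set gave 0.12. Dnaja1, Dnajb4 and Dnajb6 differed by 0.00, 0.03 and −0.00.

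The CCT ring, a chaperonin of 8 different subunits that were all measured (Tcp1 being the alpha subunit), was matched closely between genotypes. The 8 log2 differences ran from −0.12 (Cct2) to 0.03 (Cct8) with a median of −0.01, and 2 were above 0. Cct2 read 4529, 4741 and 4133 in wild type and 3943, 4597 and 3810 in heterozygotes, lower in 3 of 3 pairs but overlapping, at −0.12 ± 0.13 (adjusted p = 1.00). Its other probe sets stayed within 0.08 of this value and had the same sign. Tcp1, whose probe set gave the highest signal among the cytosolic members, read 6378, 6020 and 6616 in wild type and 6434, 5624 and 6338 in heterozygotes.

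For the ring the data bound the difference as well as center it. The 95% interval lay within 0.5 of 0 on the log2 scale for 6 of 8 subunits, and for all 8 with the replicate block, where 43% and 73.1% of all probe sets did so. Over all 34 chaperone genes the numbers were 19 and 29. Cct5 and Cct7, the subunits with the wider intervals, were those with the most spread between replicate numbers. Stip1, the adaptor that passes clients from HSP70 to HSP90, ranged from 354 to 705 in wild type and from 474 to 602 in heterozygotes, a difference of 0.09 ± 0.26.

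The mitochondrial set is the import motor HSP70 Hspa9, the chaperonin Hspd1 (HSP60) and its lid Hspe1 (HSP10). Hspd1 and Hspe1 work as one folding chamber, and their genes lie head to head. Hspe1, whose probe set gave the highest signal of the 3, read 2839, 3382 and 2797 in wild type and 3557, 3506 and 2997 in heterozygotes, higher in 3 of 3 pairs at 0.16 ± 0.14 (adjusted p = 1.00). Its other probe set differed from this value by 0.05. Hspd1 read 819, 751 and 901 in wild type and 783, 717 and 854 in heterozygotes, lower in 3 of 3 pairs at −0.07 ± 0.13. Hspa9 was also lower in 3 of 3 pairs (−0.09 ± 0.15).

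The partners Hspd1 and Hspe1 thus had opposite signs, although neither interval excluded 0 and the difference between the partners was not tested. Among all probe sets, 13.8% were higher and 17.1% lower in 3 of 3 pairs. Over the 34 chaperone genes, 6 were higher and 4 lower in this way.

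The window of Hspe1, at chr1:55087898-55088197, plus strand, overlaps that of Hspd1 on the other strand. Capitals mark a run of 4 alternating units that contains the 3-unit heat shock element GAANNTTCNNGAA on both strands.
Hspe1: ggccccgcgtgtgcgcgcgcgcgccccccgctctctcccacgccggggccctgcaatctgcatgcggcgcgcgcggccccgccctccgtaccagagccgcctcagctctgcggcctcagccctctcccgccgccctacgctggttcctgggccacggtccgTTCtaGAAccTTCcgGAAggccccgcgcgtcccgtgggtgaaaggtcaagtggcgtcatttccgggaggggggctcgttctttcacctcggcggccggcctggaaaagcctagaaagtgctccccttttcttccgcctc
The 3-unit element was found in 0.603% of all windows, in 0.662% of all genes and in 4 chaperone genes, these 2, Dnajb6 and Hsph1. The run starts 89 bases before the Hspe1 start and ends 72 bases before it, so a single stretch serves as the match in both genes.

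In the endoplasmic reticulum, Hspa5 (BiP) is the HSP70 and Hsp90b1 (GRP94) the HSP90, and both are standard readouts of the unfolded protein response. Hsp90b1 had the third-highest difference of the 34 genes. Its brightest probe set (1438040_a_at) read 362, 272 and 325 in wild type and 500, 314 and 534 in heterozygotes. Heterozygous replicates 1 and 3 lay above every wild type sample, and replicate 2, the lowest sample of each genotype, made the genotypes overlap. The means were 320 ± 45.0 and 449 ± 118 (SD, n = 3 mice each), and the log2 difference was 0.46 ± 0.23 (adjusted p = 1.00; adjusted p = 0.431 with the block). The other Hsp90b1 probe set, of about the same signal, read 340, 293 and 363 in wild type and 306, 344 and 377 in heterozygotes. Its wild type mean of 332 was above the 320 of the brightest. The heterozygous values thus decided which probe set stood for Hsp90b1, and its rank among the 34 genes rests on that choice. The other probe set differed by 0.04, and the gap of 0.42 between the probe sets was the largest among the 22 chaperone genes with another probe set above 100. The mean of both gave 0.25 for the gene, and without heterozygous replicate 2 the brightest gave 0.70. In 18 of these 22 all such probe sets lay within 0.2 of the brightest.

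Hspa5 read 1524, 1403 and 1366 in wild type and 1766, 1572 and 1440 in heterozygotes. It was higher in 3 of 3 pairs at 0.15 ± 0.13 (interval −0.15 to 0.45), and its genotypes overlapped. Its other probe set differed from this value by 0.03. Hspa5, Dnajb1 and Stip1 were named after their values were seen.

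Most reticulum members hold a promoter element that is known from reticulum chaperone genes, so finding it in them is not independent evidence. The ER stress element, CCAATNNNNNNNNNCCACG on either strand, was found in 6 of the 9 reticulum genes and in 0 of the other 22 chaperone genes with a window. It occurred in 0.119% of all RefSeq windows and in 0.137% of all genes with a window. The 7 copies are shown 5′ to 3′ on their own strand, with the outer blocks in capitals.
Hspa5: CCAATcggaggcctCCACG
Hsp90b1, distal copy: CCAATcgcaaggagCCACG
Hsp90b1, proximal copy: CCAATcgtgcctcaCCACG
Calr: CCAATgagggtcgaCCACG
Canx: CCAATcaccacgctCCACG
Pdia6: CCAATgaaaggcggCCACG
Dnajc3: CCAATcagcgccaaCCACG
Only the outer blocks are common to all copies. All lay before the start site, from 212 bases in Hsp90b1 to 65 bases in Hspa5, and Hsp90b1 held a pair of them in opposite orientations.

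The whole windows of Hspa5 (chr2:34771840-34772139, plus strand) and Hsp90b1 (chr10:86705395-86705694, minus strand) follow, with the same capitals, since these genes lead the reticulum set by their differences.
Hspa5: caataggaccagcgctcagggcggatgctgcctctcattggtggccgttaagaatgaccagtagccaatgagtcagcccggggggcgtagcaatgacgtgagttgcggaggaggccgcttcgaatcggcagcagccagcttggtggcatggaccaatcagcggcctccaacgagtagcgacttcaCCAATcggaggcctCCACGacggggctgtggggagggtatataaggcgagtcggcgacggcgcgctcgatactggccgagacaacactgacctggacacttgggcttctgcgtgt
Hsp90b1: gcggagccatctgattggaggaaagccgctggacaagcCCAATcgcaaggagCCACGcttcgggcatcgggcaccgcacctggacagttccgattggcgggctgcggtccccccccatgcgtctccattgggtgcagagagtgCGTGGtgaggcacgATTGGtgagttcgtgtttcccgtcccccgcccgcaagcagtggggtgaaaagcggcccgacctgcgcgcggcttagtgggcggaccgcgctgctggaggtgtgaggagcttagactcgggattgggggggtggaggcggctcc
The CCAAT box within the element was searched by itself as well. It was in 9 of 9 reticulum genes, and in 20 of all 31 chaperone genes with a window, where 41.1% of all genes and 37.4% of all windows held it. The 2-unit heat shock element was in 10 of the 31 and in 0 of the 9 reticulum genes, beside 9.04% of all genes.

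The genes that carry the ER stress element did not share a direction. Calr and Canx, lectin chaperones that fold glycoproteins, differed by −0.03 ± 0.25 and −0.05 ± 0.19. Canx, whose probe set gave the highest reticulum signal, read 2761, 2216 and 3170 in wild type and 2705, 2142 and 2994 in heterozygotes, lower by a small step in every pair. Its other probe sets above 100 had the opposite sign, within 0.17 of this value. Pdia6, a disulfide isomerase, ranged from 270 to 559 in wild type and from 276 to 548 in heterozygotes (−0.07 ± 0.35). Dnajc3, a J protein that also restrains the kinase PERK, differed by −0.04 ± 0.22.

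Of the remaining reticulum members, Dnajb9, a J protein partner of Hspa5, differed by −0.04, Pdia3 by 0.01 and Pdia4 by −0.08. Pdia4 was dim, from 13.5 to 27.9 in all samples. The median of the 9 reticulum genes was −0.04, with 3 above 0, beside −0.07 for the 3 mitochondrial and 0.00 for the 21 cytosolic genes. Hsf2, the only factor measured among the members, had signals of 8.67 to 10.6, in the range of the olfactory receptor probe sets, so its difference of −0.06 carries little information.

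**Figure D3:**
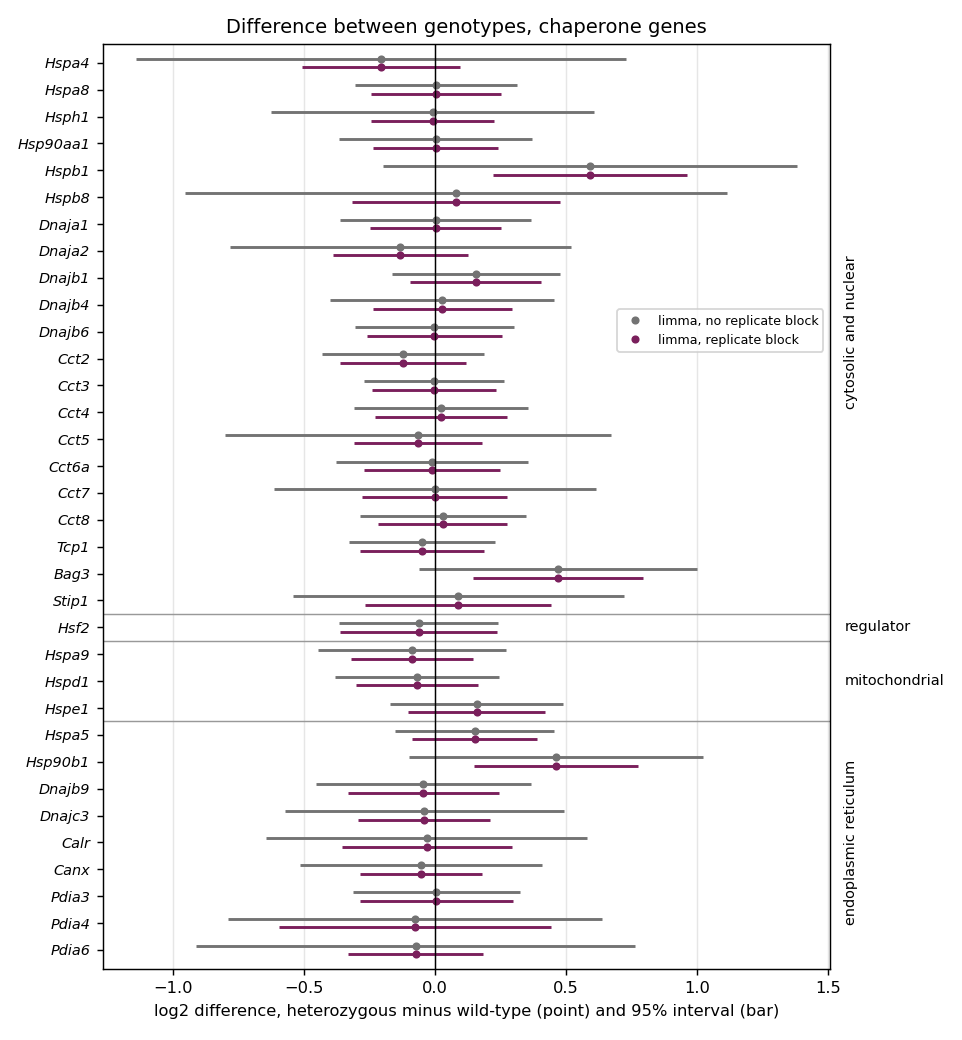
Log2 difference between Pax6 heterozygous and wild type lens for each of the 34 chaperone genes (points, brightest probe set) with 95% intervals (bars) from limma without (grey) and with (purple) the replicate number as a block. Without the block every interval includes 0, and with the block those of Hspb1, Bag3 and Hsp90b1 lie above 0.

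Chaperone signals followed the replicate number more than the genotype. The median share of a chaperone gene's variation on the log2 scale that went with the replicate number was 84.3%, and that with the genotype 1.35%. The replicate number has more levels than the genotype, so its share tends to be larger even where neither has an effect. For all genes with a median signal above 100, which are like the chaperones in brightness, the medians were 82.6% and 5.18%. The share of the replicate number was over 50% in 30 of 34 chaperone genes and the share of the genotype in 0, and bright genes at large followed the replicate number about as closely.

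Replicate 2 stood apart most often. Both of its samples lay above the other 4 in 12 chaperone genes and below them in 9, where 17.1% and 17.2% of all probe sets did so. Among genes with a median signal above 100, 21.4% were above and 29.0% below, against 35.3% and 26.5% of the chaperone genes. The group above held 5 CCT subunits (Cct2, Cct5, Cct6a, Cct7 and Cct8), Hspa8, Hspb1, Dnaja1, Dnaja2, Dnajb4, Stip1 and Pdia6. The group below held Hspa4, Hsph1, Hspb8, Tcp1, Hspa9, Hspd1, Hsp90b1, Calr and Canx.

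Subunits of the CCT ring were not uniform by their brightest probe sets: 5 of 8 were above in replicate 2, 1 was below and 2 were neither. Cct5 read 1228, 2103 and 1133 in wild type and 1153, 1907 and 1163 in heterozygotes, high in replicate 2, while Tcp1, a subunit of the same ring, was lowest there in both genotypes. The brightest probe sets of Pdia6 and Canx, both reticulum genes with an ER stress element, went opposite ways in replicate 2. Another Canx probe set (1422845_at) was above there, like Pdia6, while the remaining one (1428935_at) was below. Another probe set of Hspa9 (1418504_at) and another of Hsp90aa1 (1437497_a_at) were also above there, unlike their brightest. In these genes the replicate pattern thus depended on the probe set. Both samples of replicate 3 were above the other 4 in 8 genes, among them Hsp90aa1, Hspa9, Hspd1 and Dnajc3, or 23.5%, against 15% of all probe sets and 24.2% of genes with a median signal above 100. These examples were chosen after their values were seen.

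**Figure D4:**
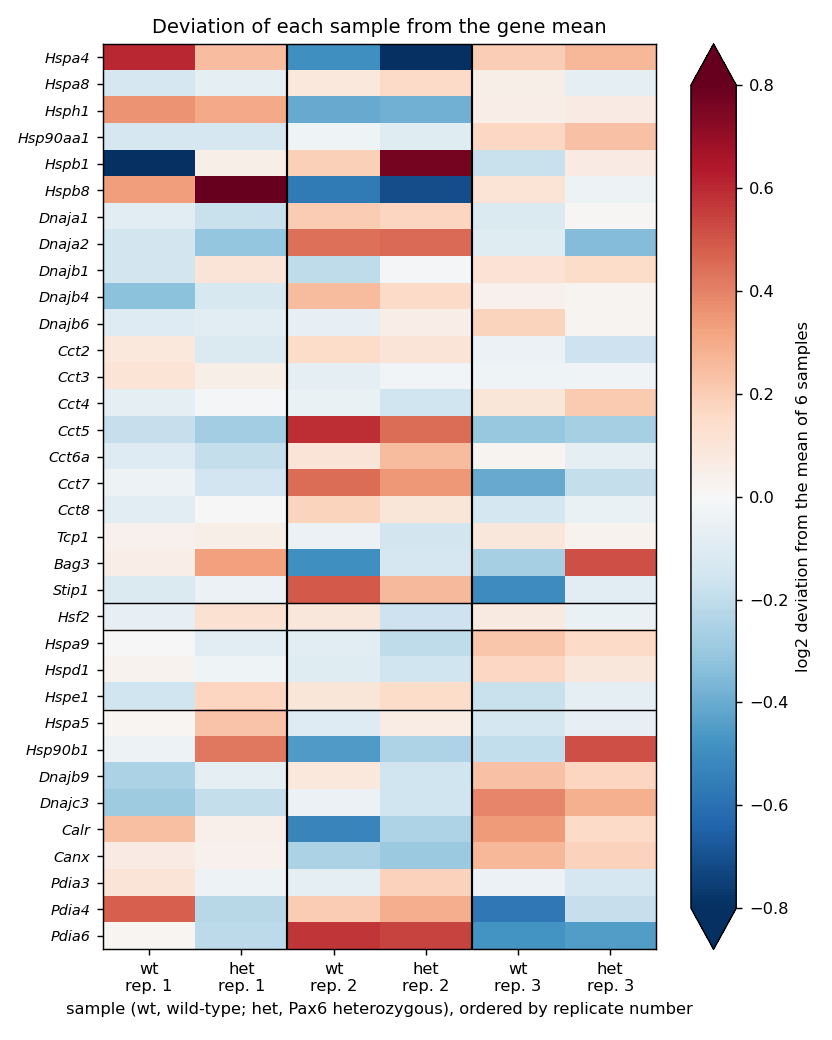
Log2 deviation of each sample from the mean of the 6 samples for the 34 chaperone genes, with samples side by side by replicate number (wt, wild type; het, Pax6 heterozygous) and horizontal lines between compartments. The wild type and heterozygous columns of a number share their color in most rows, and both columns of replicate 2 are red for Cct5, Dnaja2 and Pdia6 and blue for Hspa4, Hsph1 and Hspb8.

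The wider chaperone network was also near 0. Of 42 other measured cytosolic chaperones and cochaperones, such as prefoldins, BAG proteins and HSP90 cochaperones, 21 were above 0, the median was −0.0014, and 0 had an unadjusted p under 0.05. With the block Dnajc9, a histone chaperone of dividing cells, was the only one. Over all probe sets the shares were 1.99% without the block and 9.03% with it, so neither count is above the background. Dnajc9 read 172, 88.9 and 99.4 in wild type and 269, 159 and 116 in heterozygotes, overlapping, at 0.57 ± 0.37 without the block and ± 0.14 with it. Hspa1a, the heat-inducible HSP70, read 10.2, 9.11 and 11.6 in wild type and 10.02, 11.9 and 8.67 in heterozygotes. It was at the level of the olfactory receptors in all 6 samples, while Hspa1b, its near-identical copy, averaged 58.4 in wild type and differed by 0.00, though such copies may share probes.

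Among 13 other mitochondrial chaperones and proteases the median was −0.11, with 5 above 0. Hscb, a J protein of iron-sulfur cluster assembly, read 41.8, 38.6 and 33.0 in wild type and 27.2, 31.3 and 29.4 in heterozygotes. The genotypes did not overlap, and the difference was −0.36 ± 0.14 (adjusted p = 1.00). It was the only one of the 13 with an unadjusted p under 0.05, and with the block Trap1, the mitochondrial HSP90, joined it. Of all probe sets 1.99% had such a p without the block and 9.03% with it. Trap1 read 158, 192 and 150 in wild type and 128, 150 and 97.7 in heterozygotes, at −0.43 ± 0.19 without the block and ± 0.11 with it.

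The unfolded protein response and reticulum quality control list had 38 measured genes with a median of 0.07, of which 25 were above 0. In this list 2 genes had an unadjusted p under 0.05 and 3 had one with the block, where 1.99% and 9.03% of all probe sets did. The count with the block is near the background for both directions together. All were lower in heterozygotes, where the shares of all probe sets for lower alone were 1.01% and 4.59%. The stress sensor Ern1, added by the block, read 13.0, 10.1 and 12.6 in wild type and 9.38, 8.39 and 11.2 in heterozygotes, near the olfactory receptors. Ppp1r15a, which restores translation after stress, read 28.7, 32.2 and 26.4 in wild type and 19.1, 27.1 and 18.3 in heterozygotes (−0.46 ± 0.18, adjusted p = 1.00). Ero1b, an oxidase that recharges disulfide isomerases, read 74.9, 114 and 109 in wild type and 45.7, 64.1 and 72.5 in heterozygotes (−0.71 ± 0.24, adjusted p = 1.00). Its genotypes did not overlap. Xbp1, a main transcription factor of this response, read 53.8, 55.0 and 39.9 in wild type and 51.0, 64.9 and 47.3 in heterozygotes (0.14 ± 0.19).

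Hsf4, the heat shock factor known for its role in lens fiber cells and in cataract, read 205, 609 and 193 in wild type and 163, 515 and 174 in heterozygotes. It was high in replicate 2 of both genotypes, and lower in heterozygotes in 3 of 3 pairs at −0.24 ± 0.61 (adjusted p = 1.00). With the block Hsf4 was the only gene of its list of 2 measured genes with an unadjusted p under 0.05. Of all probe sets 9.03% had such a p. Hsbp1, which binds heat shock factors, differed by −0.06. Neither they nor any other gene of these lists passed the adjusted threshold in either fit.

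Some marker lists of other cell types had most genes above 0 and others most below, though none of their genes passed the adjusted threshold and most summed signals overlapped between genotypes. Those of retina and neuron markers did not overlap. With the block, limma gave an unadjusted p under 0.05 and a higher signal for 7 of 8 dividing cell and 4 of 10 endothelium markers. The same held for 4 of 10 muscle and pericyte, 4 of 11 retina and neuron and 2 of 11 macrophage markers. Lower with such a p were 2 mesenchyme, 1 retina and neuron and 1 lens marker. Over all probe sets 4.43% were higher and 4.59% lower in this way. In these whole-lens samples fewer cells of a type and less RNA per cell cannot be told apart. All 10 endothelium markers were above 0, with a summed signal of 825 to 1974 in wild type and of 1083 to 3590 in heterozygotes. Their medians in same-numbered pairs 1, 2 and 3 were 0.87, 0.14 and 0.14. The muscle and pericyte list had 8 of 10 above 0 (895 to 2721 and 1581 to 4770), with Des, Cnn1 and Myh11 near background in both genotypes. Macrophage markers were above 0 in 10 of 11 (468 to 1346 and 313 to 1587), retina and neuron markers in 8 of 11 (836 to 951 and 1072 to 1642) and dividing cell markers in 8 of 8 (588 to 1986 and 1363 to 2638). In pairs 1, 2 and 3 the macrophage medians were 0.39, 1.33 and −0.48, and those of dividing cell markers 0.54, 1.22 and 0.52. Mesenchyme markers were above 0 in 1 of 10 (794 to 1237 and 582 to 1085, median −0.18), red blood cell markers in 0 of 5 (58.4 to 71.5 and 51.8 to 73.9, near background) and cornea and surface epithelium markers in 4 of 8 (1344 to 1873 and 1508 to 1863). Of 10 lens markers 1 was above 0, their summed signal was 76548 to 90059 in wild type and 73460 to 86328 in heterozygotes, and Foxe3 was near background. Immediate early genes, which respond to stimulation within minutes, were above 0 in 14 of 15, beside 47.0% of all genes. Their medians in same-numbered pairs 1, 2 and 3 were 0.72, 0.08 and 0.03, so most of the rise lay in replicate 1. Of the 15, 1 had an unadjusted p under 0.05 without the block and 5 with it, beside 1.99% and 9.03% of all probe sets. Dusp1 was the former, at 1202, 1224 and 1053 in wild type and 1797, 1351 and 1391 in heterozygotes (0.37 ± 0.15, adjusted p = 1.00). Hspb1, Bag3 and Hsp90b1 are expressed in many of these cell types, and the part of cell makeup or of an immediate early response in their differences was not tested.

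The replicate numbers too went with these lists. The summed lens markers were highest in replicate 2 of each genotype, and the summed endothelium markers were highest in replicate 1 of each. Their part in the replicate pattern of the chaperones was not tested.

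**Figure D5:**
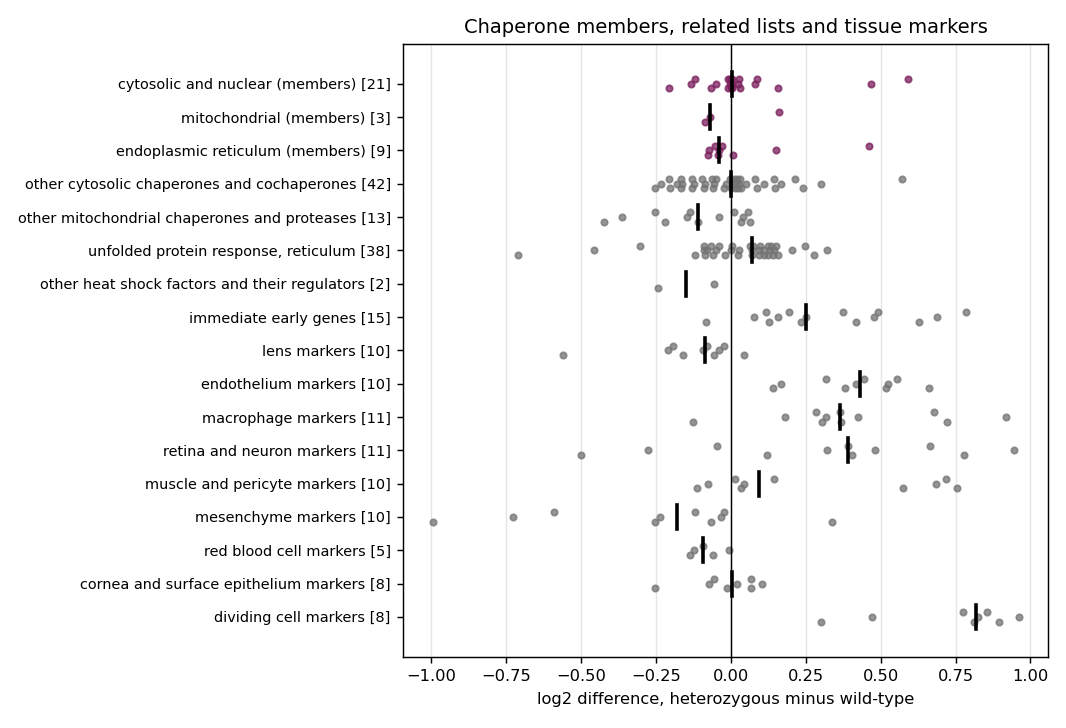
Log2 difference, Pax6 heterozygous minus wild type, of each gene (points) and its median (black bars) in the chaperone compartments (purple), related gene lists and tissue marker lists (grey), with the number of measured genes in brackets. Chaperone medians lie at −0.07 to 0.00, while those of endothelium and dividing cell markers lie at 0.43 and 0.82.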

How the data were processed

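The authors extracted total RNA from both lenses of each mouse, amplified and biotin-labeled it with the NuGEN Ovation system and hybridized it to Affymetrix mouse genome arrays. The deposited values are signal intensities per probe set made by the authors with RMA (version not given in the sources used here) on the linear scale, 1 array per mouse. There are no counts, so the number of arrays limits the precision. Without the replicate block p values rest on the spread between these mice within a genotype. With it they rest on the spread of the differences between same-numbered mice. The table used here covers fewer probe sets than the full array design that the methods name.

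The log2 of the deposited intensities was taken with no further normalization. After 64 control probe sets were left out, 22626 were tested (difference = heterozygous − wild type) by lmFit and eBayes of limma 3.58.1 under R 4.3.3, adjusted over all of them at 0.05. Gene symbols came from the platform annotation (20380 probe sets with a single gene, 691 with several, 1555 with none), and all 34 measured members matched RefSeq symbols. Promoter windows were read from a RefSeq table (GRCm38.p6), in which 31 of the 37 members were found, and motifs were searched on both strands. Tables and figures were made with Python 3.11.15 and matplotlib 3.10.9.

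Members and gene lists were chosen with earlier results of these data known. Values in every sample were given for members with an unadjusted p under 0.05 with or without the replicate block, the 3 with the largest difference in each direction and the brightest of each compartment, and, in related chaperone and stress lists, for genes with such a p without the block and for Hsf4, Hspa1a and Xbp1; Dnajc9, Trap1 and Ern1, which had such a p with the block, are also given. The shares of genotype and replicate number are sums of squares of the log2 signals.

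Pairing by replicate number was checked through correlations between the samples' deviations from their genotype mean. These were 0.604 to 0.734 for the same number and −0.496 to −0.0751 for different numbers, so every same-numbered pair passed 0.1. Deviations sum to 0 within a genotype, so positive values for the same number make those for different numbers negative on average. The negative values are therefore not separate evidence of pairing. The labels number the replicates, and the methods do not say what a number shares. The block was run as an alternative. Others were array weights, quantile normalization, centring on the median, a minimum median signal of 50, a robust prior with an intensity trend, the methods' t-test on log2 and linear signals, averaging a gene's probe sets, and omitting samples singly. The fit was tested on simulated data in which same-numbered samples shared an effect. Over 22626 probe sets it recovered 42% of log2 changes of 1 and 92% of changes of 2 without the block (0% of calls false), and 84% and 96% with it (9.09% false). In data simulated with independent samples it recovered 57% and 93% without the block (5.66% false). With the block these were 4% and 78% (2.38% false). Changes as small as those of the chaperone genes, at most 0.59, were not simulated.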

Additional observations from a re-analysis of the deposited data

How the results depend on the processing

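The count of 0 chaperone genes past the adjusted threshold held under every alternative run. With the replicate number as a block, 3 chaperone genes instead of 0 had an unadjusted p under 0.05, and the block, which takes same-numbered samples as pairs, changed no other call among the members. The count was 1 when a gene's probe sets were averaged and 0 to 2 with a sample left out (Bag3 without wild type replicate 1, Hspb1 without wild type replicate 2, Bag3 and Hsp90b1 without heterozygous replicate 2). The count of genes whose genotypes did not overlap, 0, became 2 with the mean of probe sets and 0 to 5 with a sample left out. The counts in these settings have no share over all probe sets beside them. With fewer samples the genotypes separate more easily, so no change is read from these counts. The median of the mitochondrial genes, −0.07, was −0.055 with quantile normalization, −0.095 with median centring, −0.068 with array weights and −0.066 with the mean of probe sets. With a sample left out it ran from −0.13 to 0.0022, that of all 34 genes from −0.028 to 0.035, that of the cytosolic genes from −0.022 to 0.046 and that of the reticulum genes from −0.012 to 0.066.

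The sign of a difference was not settled for most members: 26 of 34 changed sign in at least 1 alternative, 11 of them in one other than leaving out a sample. Hspb1, Bag3, Hsp90b1, Hspa5, Dnajb1, Hspe1, Hspd1 and Cct2 never did. Quantile normalization and array weights turned Cct7 to 0.020 and 0.015, and array weights turned Pdia3 to −0.034. Median centring, which shifts all differences by −0.025, gave −0.021 for Hspa8, −0.022 for Hsp90aa1, −0.023 for Dnaja1, −0.020 for Pdia3 and −0.0019 for Cct4. The mean of probe sets gave −0.0074 for Hspa8, −0.033 for Hsp90aa1, −0.069 for Dnaja1, 0.0070 for Dnajb6, −0.021 for Cct8, 0.027 for Canx, 0.037 for Pdia4 and 0.0059 for Pdia6. Leaving out each sample in turn gave these log2 ranges for genes that changed sign: Hspa4 −0.50 to 0.15, Hspa8 −0.072 to 0.046, Hsph1 −0.21 to 0.18, Hsp90aa1 −0.11 to 0.086, Dnaja1 −0.084 to 0.10, Dnajb4 −0.13 to 0.16, Cct3 −0.039 to 0.051, Cct4 −0.074 to 0.11, Cct8 −0.034 to 0.13, Calr −0.30 to 0.13, Pdia4 −0.38 to 0.15, Hspb8 −0.34 to 0.46, Dnaja2 −0.39 to 0.054, Cct5 −0.31 to 0.21, Cct6a −0.14 to 0.081, Cct7 −0.20 to 0.22, Pdia3 −0.085 to 0.075, Pdia6 −0.36 to 0.19, Hsf4 −0.78 to 0.29, Dnajb6 −0.056 to 0.085, Stip1 −0.14 to 0.35, Hspa9 −0.19 to 0.0022, Dnajb9 −0.18 to 0.062, Dnajc3 −0.20 to 0.14, Canx −0.19 to 0.083, Hspa1a −0.14 to 0.089, Xbp1 −0.014 to 0.23, Tcp1 −0.086 to 0.012, Hsf2 −0.14 to 0.0051. The cause was not tested. A minimum signal of 50 left out Bag3, Pdia4 and Hsf2, whose differences are the most open to background.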
